A study of Homo sapiens with 4 samples.

Results

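The miR-532 to miR-502 cluster is a run of 8 microRNA hairpins within the chloride channel gene CLCN5 on the X chromosome. Its members were the PCR assays whose names carry miR-188, miR-362, miR-500, miR-501, miR-502, miR-532 or miR-660. This name rule, which used no measured value, found 12 of the 737 different miRNA assays of the study. They cover 7 of the 8 hairpins, with both arms of 5 hairpins and 1 arm of MIR500A and MIR660. SYBR Green PCR was used to read mature miRNA in U2OS, a cell line from a human bone tumour (osteosarcoma), and 4 samples were measured, 1 per group. The shDDX1 cells had been infected with a lentivirus that expresses a short hairpin RNA against DDX1, an RNA helicase, and the shNS cells with one that expresses a control short hairpin RNA. Both were selected with puromycin at 2 µg/ml. The NCS sample came from cells exposed to neocarzinostatin (NCS), a DNA-breaking drug, at 500 ng/ml for 6 h, and the untreated sample from cells without it. The short hairpin RNA against DDX1 was thus present in 1 sample. These plates carry no assay for DDX1 or CLCN5 mRNA, so the extent of the knockdown was not measured here. No result below has a replicate check, so no test and no p-value was computed.

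A miRNA hairpin is cut from a long primary transcript by Drosha in the nucleus, and then by Dicer in the cytoplasm into a duplex with a 5p and a 3p arm. Either arm can be loaded into an Argonaute protein, where its seed, bases 2 to 8, directs it to target mRNAs. Hairpins in 1 intron can arise from 1 primary transcript, so cluster mates share transcription and can still differ in processing and in stability. CLCN5 encodes a chloride/proton exchanger of endosomes and is best known from the kidney.

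In GRCh38.p14 the 8 hairpins lie on the plus strand of chromosome X and span 11536 bases, all inside CLCN5 (49922596 to 50099230). MIR532 comes first, at 50003148 to 50003238 and 80.6 kb from the start of the gene, and MIR188 follows at 50003503 to 50003588 after a gap of 264 bases. After a gap of 4842 bases come MIR500A (50008431 to 50008514), MIR362 (50008964 to 50009028), MIR501 (50009722 to 50009805) and MIR500B (50010672 to 50010750). MIR660 (50013241 to 50013337) and MIR502 (50014598 to 50014683) end the run. Exon and intron borders of CLCN5 were not used here, and MIR500B had no assay. The mature sequences follow because the assays are told apart only by these letters. They are from RefSeq, 5′ to 3′, with the seed in capitals, and 11 of the 12 members matched. The assay miR-500a, named without an arm, was taken as the 5p strand by the older naming, and miR-660 likewise.
miR-532-5p: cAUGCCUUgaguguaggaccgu
miR-532-3p: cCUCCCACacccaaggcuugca
miR-188-5p: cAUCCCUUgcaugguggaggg
miR-188-3p: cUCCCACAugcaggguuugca
miR-500a-5p: uAAUCCUUgcuaccugggugaga
miR-362-5p: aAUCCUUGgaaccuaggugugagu
miR-362-3p: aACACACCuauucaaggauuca
miR-501-5p: aAUCCUUUgucccugggugaga
miR-501-3p: aAUGCACCcgggcaaggauucu
miR-502-5p: aUCCUUGCuaucugggugcua
miR-502-3p: aAUGCACCugggcaaggauuca

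The 5p strands of MIR500A, MIR362, MIR501 and MIR502 share the run AUCCUU, but it starts at a shifted position in each seed or is followed by another base, so these 4 strands have 4 different seeds. Among the 11 matched members only miR-501-3p and miR-502-3p share a seed. They are the same at 20 of 22 bases and differ by C9U and U22A, counted from the 5′ end with the miR-501-3p base first. Whether the PCR assays separate such similar strands was not tested. Outside the measured members, RefSeq holds 1 further human miRNA with the seed of miR-362-3p (miR-329-3p), 1 with that of miR-362-5p (miR-500b-5p, from the same cluster) and 1 with that of miR-188-5p (miR-6866-3p).

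The readout is the quantification cycle (Ct), the PCR cycle at which fluorescence crosses a threshold, so that an earlier Ct means more template. A Ct under 35 was taken as quantified, and all 12 members were quantified in all 4 samples, against 723, 732, 591 and 521 of 740 miRNA wells in shDDX1, shNS, NCS-treated and untreated cells. Leaving out miR-188-3p, which is described apart, members read Ct 20.2 to 29.8 in shDDX1, 20.2 to 28.7 in shNS, 22.5 to 31.5 in NCS-treated and 23.5 to 34.1 in untreated cells. Most were earlier than the median miRNA well of their sample: 10 members in shDDX1, 10 in shNS, 11 in NCS-treated and 9 in untreated cells. Untreated cells read later than shNS cells for every member, by 2.3 to 6.7 cycles, and all ratios below are between samples of 1 pair. All 6 miRNAs on a list of mesenchymal markers were under Ct 35 in each sample, and the earliest of them, miR-21, read 17.2, 16.6, 19.7 and 23.4 in the same order of samples. The median of that list was later, at 23.4, 23.6, 26.3 and 28.8. All 6 epithelial, 3 nerve and 1 liver markers were under Ct 35 in each sample too. Of 6 blood markers 4 were under it in untreated cells and 6 in the other samples. Of 5 muscle markers 5 were under it in shDDX1 and shNS, 3 in NCS-treated and 1 in untreated cells. The earliest marker outside the mesenchymal list was a nerve marker (miR-9) at 23.5, 22.6, 25.3 and 27.5. The part of these markers in the results below was not tested.

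The order of the members was much alike in all samples, with Spearman correlations of their Ct between samples of 0.846 to 0.979 over 12 assays. Ct values of different assays also depend on primer efficiency, so this order is one of readings and not of molecule numbers. miR-502-5p, from the last hairpin of the run, was the earliest of the 11 other members, at Ct 20.2 in shDDX1, 20.2 in shNS, 22.5 in NCS-treated and 23.5 in untreated cells. It ranked 24, 33, 21 and 22 among all assays. miR-532-3p, miR-501-5p and miR-532-5p came next, between Ct 23.7 and 25.3 in the shRNA pair and between 26.5 and 28.6 in the NCS pair. The 2 arms of MIR362 and miR-188-5p read latest in the NCS-treated and untreated samples, at Ct 30.5 to 34.1. In shNS the 2 arms of MIR362 were latest, and miR-188-5p, at 25.5, lay in the middle of the members.

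miR-188-3p stood far apart from its cluster mates. It read Ct 7.64 in shDDX1, 7.14 in shNS, 12.1 in NCS-treated and 12.7 in untreated cells. That was the earliest of all miRNA wells in shNS, NCS-treated and untreated cells and the second earliest in shDDX1, after miR-603 at 7.33. The other arm of the same hairpin, miR-188-5p, read 27.7, 25.5, 30.5 and 32.2. Only 4 miRNA assays had a Ct under 12 in any sample, namely miR-188-3p, miR-570, miR-603 and miR-875-5p. The amplification curves are not analysed here, and whether the early reading is template or a fault of the assay was not tested. Under the common centring, 2-fold counts, medians and SDs over all members are given below with and without it. The other results over the members include it. Among them are the arm difference of MIR188, the quartile distances, the panel II spread and the correlations.

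**Figure D1:**
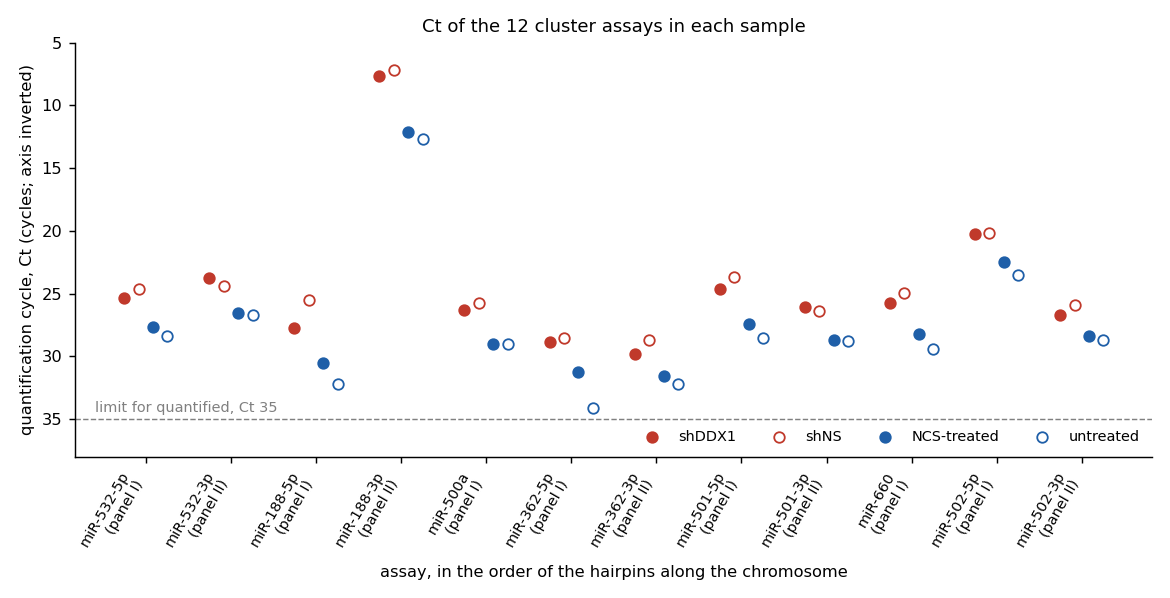
Quantification cycle (Ct, cycles, axis inverted so that more template is higher) of the 12 cluster assays, in the order of their hairpins along the chromosome. Each point is 1 sample, filled for shDDX1 and NCS-treated cells and open for shNS and untreated cells. miR-188-3p lies between 7.14 and 12.7, far above the others, and the widest gaps within a pair are those of miR-188-5p in the shRNA pair and miR-362-5p in the NCS pair.

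To compare the samples of a pair, each Ct was subtracted from the mean Ct of the 499 miRNA wells under 35 in all 4 samples. The difference of these centred levels is the log2 ratio, with 1 cycle taken as a doubling. Technical spread came from 7 assays present on both PCR plates (panel I and panel II), some of which, such as U6, are not miRNAs. For each assay the log2 ratio on panel I was compared with that on panel II, without centring. The SD of a single ratio, taken from these differences, was 0.385 in the shRNA pair and 0.795 in the NCS pair. Any constant shift between the panels is part of this SD. Without miR-423-5p, left out after the values were seen because its wells disagreed most, the SDs were 0.322 and 0.354 over 6 assays. The members are split by panel in a way that matters here. All 7 members of the 5p arm, miR-660 and miR-500a included, are on panel I, and all 5 members of the 3p arm are on panel II, so arm and panel cannot be told apart. Of all assays, those on panel I had a median log2 ratio of -0.42 in shDDX1 over shNS, and those on panel II 0.46. After NCS the order was turned, with a median of 0.31 for panel I assays and of -0.84 for panel II assays.

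The knockdown comparison asks which mature miRNAs depend on DDX1. miR-188-5p was 3.77-fold lower in shDDX1 than in shNS cells, and the other 11 cluster assays were within 2-fold. Thus 1 of 12 members was at least 2-fold lower, against 17.3% of the 716 quantified assays, and 0 of 12 were higher, against 11%. Among panel I assays alone, where miR-188-5p lies, 29.2% were at least 2-fold lower, so a single lower assay among 7 is no more than that share. The share mixes columns of the plate. All panel I assays had a median of -0.82 in the middle columns (7 to 18). In the outer columns, where miR-188-5p lies, the median was -0.24 and the lower quartile -0.70. A share for the outer columns alone is not given here. The members' median log2 ratio was -0.35, beside 0.04 over all assays. With each panel centred on its own wells it was -0.05, beside 0.02. With miR-188-3p and the other very early assays left out, the median was -0.45, and still 1 of 11 was lower.

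Of the first pair of hairpins, miR-188-5p is the strand whose reading differed most between shDDX1 and shNS. It read Ct 27.7 in shDDX1 and 25.5 in shNS, a log2 ratio of -1.91. Ratios were also taken under other scalings, several of which shift all assays by 1 constant, and in the shRNA pair the authors' normalized table gives members the same ratios as no centring and was not counted again. Under these 10 scalings the log2 ratio of miR-188-5p stayed between -2.58 and -1.29, past 2-fold in each. The authors' deposited table gives a fold of 0.215. However, the earliest water well of panel I read 27.3 in shDDX1 and 27.8 in shNS, so the shDDX1 reading of miR-188-5p was later than a blank on the same plate. Its plate neighbours, within 2 rows and 2 columns, had a median log2 ratio of -0.62. The opposite arm miR-188-3p had a log2 ratio of -0.19. In RNA from a whole culture, less miRNA in every cell and loss from some of the cells cannot be told apart.

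MIR532 lies 264 bases before MIR188, and its strands did not follow miR-188-5p. miR-532-5p read Ct 25.3 in shDDX1 and 24.6 in shNS, a log2 ratio of -0.43. miR-532-3p read 23.8 and 24.4, and its log2 ratio of 0.95 was the highest of the cluster, positive under all 10 scalings but past 2-fold under none. The 2 arms of MIR532 therefore lay on opposite sides of 0. With each panel centred on its own wells they were at -0.0046 and 0.52.

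Of the middle hairpins, miR-500a, miR-362-5p and miR-501-5p read Ct 26.3, 28.8 and 24.6 in shDDX1, against 25.7, 28.5 and 23.7 in shNS. Their log2 ratios were -0.27, -0.03 and -0.68, and each changed sign between scalings. The 3p strand of MIR501, miR-501-3p, read 26.0 in shDDX1 and 26.4 in shNS, a log2 ratio of 0.64 that was at -0.03 against the small RNA references. miR-362-3p read 29.8 in shDDX1 and 28.7 in shNS, a log2 ratio of -0.76. This strand was lower in shDDX1 under all 10 scalings and past 2-fold in 7 of them, for example at -1.20 with each panel centred on its own wells. The fold in the authors' deposited table is 0.477. Both readings of miR-362-3p were later than the earliest blank of panel II, at 26.5 in shDDX1 and 26.6 in shNS.

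At the far end of the run, miR-660 read Ct 25.7 in shDDX1 and 24.9 in shNS, a log2 ratio of -0.52. miR-502-5p, the earliest of the members apart from miR-188-3p, read 20.2 in each sample, with a log2 ratio of 0.24 that was below 0 under 3 of 10 scalings. miR-502-3p read 26.7 in shDDX1 and 25.9 in shNS, a log2 ratio of -0.49, and was below 0 under all 10. The shDDX1 reading of miR-502-3p was later than the earliest blank of panel II, at 26.5. miR-502-3p and miR-501-3p, which share their seed and 20 of 22 bases, differed by 1.13 in log2 ratio, against a technical SD of 0.385 for a single ratio. After NCS the log2 ratio of miR-501-3p minus that of miR-502-3p was -0.27. In all, 5 members were lower in shDDX1 under every scaling run on them (miR-532-5p, both arms of MIR188, miR-362-3p and miR-502-3p), 1 was higher (miR-532-3p), and 6 changed sign. For miR-532-5p the value nearest 0 was -0.0046. Several scalings shift all assays alike, and the share of all assays that kept their sign is not given here. These counts therefore describe the members only.

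**Figure D2:**
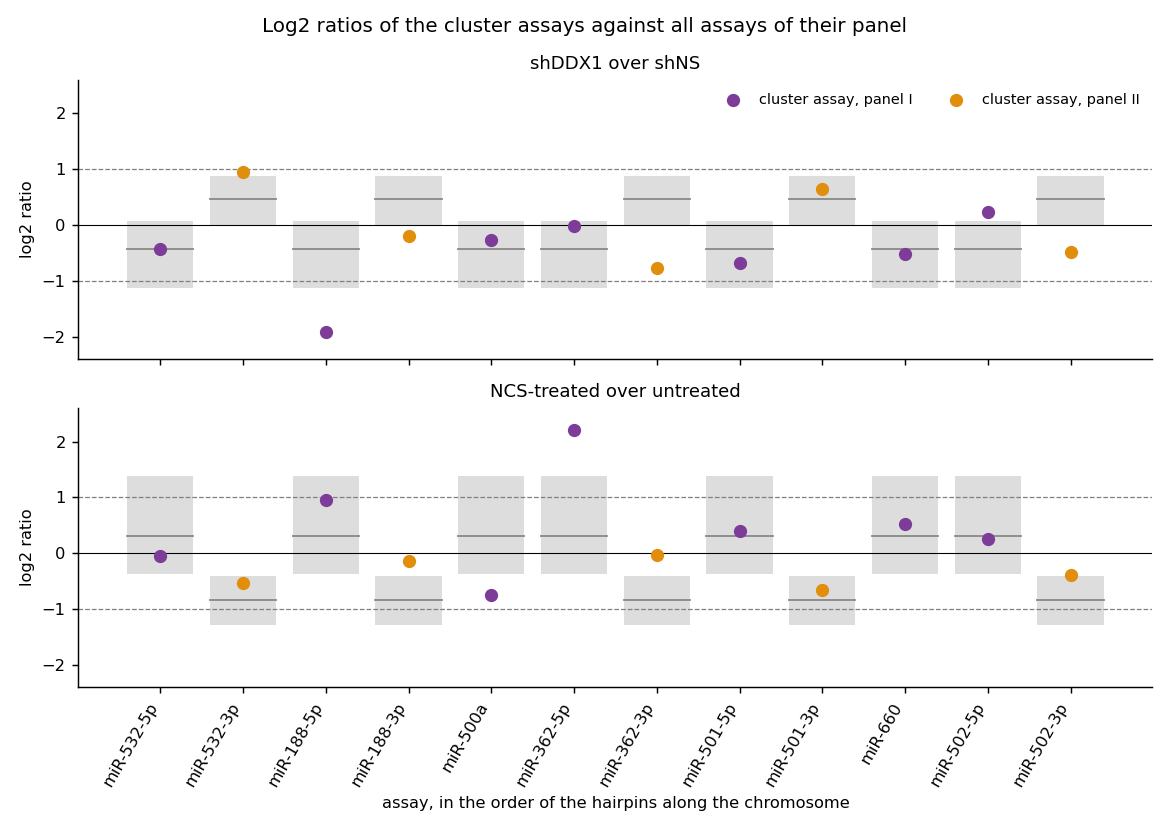
Log2 ratios of the 12 cluster assays (points, purple for panel I and orange for panel II) in shDDX1 over shNS (top) and NCS-treated over untreated cells (bottom). Grey boxes give the middle range (lower to upper quartile) and the line the median of all assays on the same panel, and dashed lines mark 2-fold. miR-188-5p at -1.91 and miR-362-5p at 2.20 are the points past 2-fold.

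The second comparison asks which mature miRNAs move 6 h after DNA double-strand breaks. miR-362-5p was 4.59-fold higher in NCS-treated than in untreated cells, and the other 11 cluster assays were within 2-fold. So 1 of 12 members was at least 2-fold higher, against 16.9% of the 498 quantified assays, and 0 of 12 were lower, against 22.3%. Among panel I assays alone, where miR-362-5p lies, 30.4% were at least 2-fold higher, and 1 of 7 members was. In the outer columns, where miR-362-5p lies, all panel I assays had a median of -0.15 and an upper quartile of 0.56. In the middle columns these were 1.21 and 2.84. The members' median log2 ratio was -0.04, which turned positive in 8 of the 10 other scalings, beside -0.38 over all assays. Without the very early assays the median was -0.00036, and still 1 of 11 was higher.

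miR-362-5p read Ct 31.2 in NCS-treated and 34.1 in untreated cells, a log2 ratio of 2.20. Its ratio stayed between 1.40 and 2.99, past 2-fold under each of 11 scalings. With a limit of Ct 32 it was not quantified, since the untreated reading is close to the limit of 35. The fold in the authors' deposited table is 5.73. The plate neighbours of this well had a median log2 ratio of -0.18, so the well stood above its surroundings. The opposite arm miR-362-3p read 31.5 in NCS-treated and 32.2 in untreated cells, a log2 ratio of -0.03. In the shRNA pair miR-362-5p read 28.8 in shDDX1 and 28.5 in shNS, where its log2 ratio of -0.03 was the nearest to 0 in the cluster. Both of these readings were later than the earliest blank of panel I, at 27.3 in shDDX1 and 27.8 in shNS.

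miR-188-5p, the strand lowest in shDDX1, had the next highest ratio after NCS. It read Ct 30.5 in NCS-treated and 32.2 in untreated cells, a log2 ratio of 0.96, and its authors' deposited table fold is 2.86. This strand was above 0 under all 11 scalings and past 2-fold in 5, but centring by panel left 0.15. Its plate neighbours had a median of 0.82. miR-188-3p had a log2 ratio of -0.14 and changed sign between scalings.

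miR-500a, whose hairpin lies next to MIR362, was the lowest of the cluster after NCS. It read Ct 29.0 in both NCS-treated and untreated cells, a log2 ratio of -0.76 that was past 2-fold lower in 2 of 11 scalings, at -1.56 when each panel was centred on its own wells, and above 0 in 2. miR-362-5p and miR-500a, whose hairpins are 449 bases apart, thus differed by 2.96 in log2 ratio after NCS, against 0.24 in shDDX1 over shNS. miR-501-5p read Ct 27.4 in NCS-treated and 28.6 in untreated cells, a log2 ratio of 0.40. It is the only panel I member in the middle columns of the plate (7 to 18), where all panel I assays had a median of 1.21, and its ratio was 1.83 in the authors' deposited normalized table and -1.12 after subtraction of neighbouring wells.

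The remaining members were within 2-fold after NCS. miR-660 read Ct 28.2 in NCS-treated and 29.4 in untreated cells, with a log2 ratio of 0.53. miR-502-5p read 22.5 and 23.5, with a log2 ratio of 0.25, and miR-532-5p 27.7 and 28.4, with -0.04. The 3p strands miR-532-3p, miR-501-3p and miR-502-3p read 26.5, 28.7 and 28.3 in NCS-treated cells, against 26.7, 28.8 and 28.7 in untreated cells. Their log2 ratios of -0.54, -0.67 and -0.39 lay above the panel II median of -0.84, and each was above 0 in 7 of 11 scalings. Over the cluster, 2 members kept their sign under every scaling run on them (miR-188-5p and miR-362-5p, both above 0). The log2 ratio was smaller than the technical SD of 0.795 for 10 of 12 members, but that SD rests largely on miR-423-5p. Against 0.354, the SD without it, 4 of 12 were smaller (miR-532-5p, miR-188-3p, miR-362-3p and miR-502-5p). No share over all assays is given here for these sign and SD counts, which describe the members only.

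**Figure D3:**
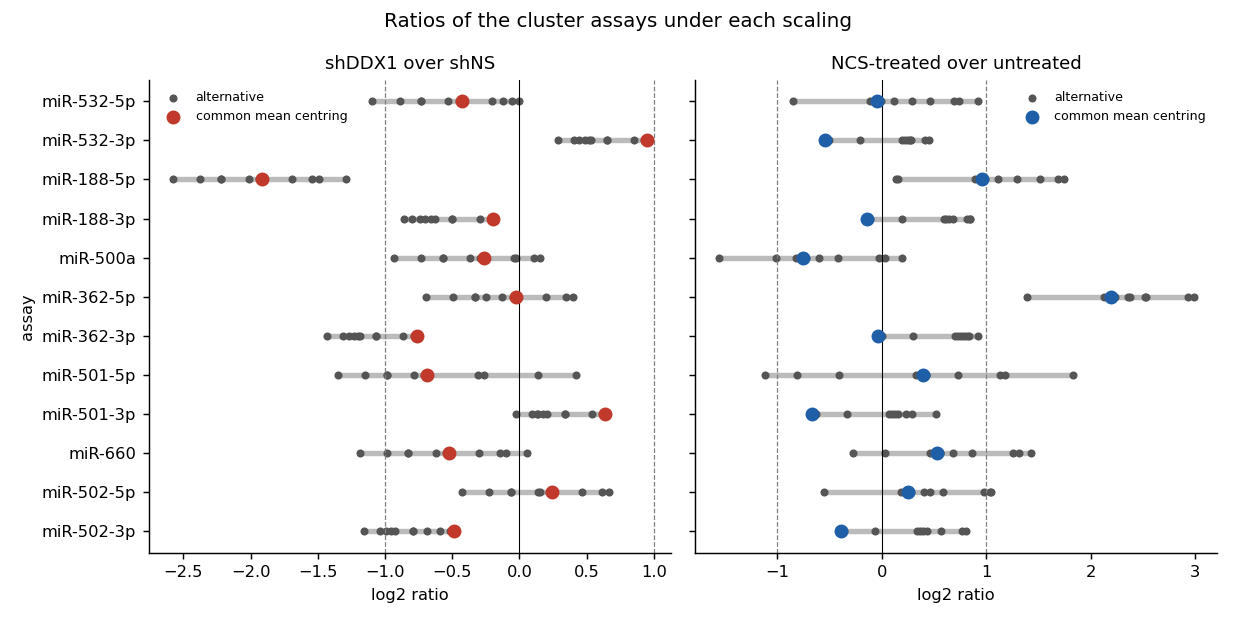
Log2 ratios of each cluster assay under the common mean centring (large point) and under the alternative scalings (small points), with a grey bar from the lowest to the highest value. Dashed lines mark 2-fold. The whole bar of miR-188-5p lies below -1 in shDDX1 over shNS (left) and that of miR-362-5p above 1 after NCS (right), and for the 3p strands of panel II the common centring lies at the upper end on the left and at the lower end on the right.

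Whether the mates of this cluster moved together was described by their spread. In shDDX1 over shNS the 12 log2 ratios ran from -1.91 to 0.95 with an SD of 0.73, against 1.63 over all 716 assays. The distance between the quartiles was 0.60 for the members and 1.22 for all assays, but 0.96 and 1.03 with each panel centred on its own wells, 0.98 and 1.04 with plate calibrators, 0.93 and 1.02 after subtraction of panel and column class, and 0.86 and 0.94 after subtraction of neighbouring wells. After NCS the members ran from -0.76 to 2.20 with an SD of 0.82, against 1.75 over all 498, and the quartiles were 0.86 and 1.47 apart. In the same order of scalings, these distances after NCS were 0.94 and 1.38, 0.49 and 1.21, 0.60 and 1.17, and 0.67 and 1.23. The members' SD was smaller than that over all assays in both comparisons. SDs over all assays include far readings such as miR-570, at -14.9 in shDDX1 over shNS and 17.3 after NCS. With the very early assays left out they were 1.35 and 1.57, beside 0.77 and 0.86 for the members. The members' SD of 0.73 was larger than the technical SD of 0.385 in the shRNA pair. In the NCS pair their SD of 0.82 stood beside technical SDs of 0.795 with miR-423-5p and 0.354 without it. On panel II the 5 members had an SD of 0.74 in shDDX1 over shNS, against 1.51 over all panel II assays, and 0.27 after NCS, against 0.82. The SD of 1.51 includes far readings such as miR-17* at -8.80 and miR-579 at 5.87. In shDDX1 over shNS the 5 members there were at -0.76, -0.49, -0.19, 0.64 and 0.95. The quartiles of all panel II assays were 0.0045 and 0.88. Quartiles of the panel II members are not given here, so their closeness by quartiles was not tested. On panel I 6 of the 7 members are in the outer columns, and their SDs of 0.75 in shDDX1 over shNS and 1.003 after NCS stood beside 0.86 and 0.90 for all panel I assays in those columns. The middle columns, with 1 member, had SDs of 1.95 and 2.54. The whole set of assays includes later readings than the members, and no test of the difference was made.

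The 2 arms of a hairpin differed in their ratios in both comparisons. In shDDX1 over shNS the 5p strand minus the 3p strand was -1.72 for MIR188, -1.38 for MIR532 and -1.32 for MIR501, but 0.74 for MIR362 and 0.73 for MIR502. The MIR188 differences rest on the very early readings of miR-188-3p. After NCS all 5 differences were above 0, from 0.50 for MIR532 to 2.23 for MIR362. Among 9 other hairpins with the same split over the panels all 9 were above 0 too, with a median of 1.92, against a median of -1.28 over 16 such hairpins in shDDX1 over shNS. When each panel was centred on its own wells, 4 of the 5 cluster hairpins turned negative after NCS, from -0.53 for MIR188 to -1.13 for MIR532, and MIR362 stayed at 0.60. The 9 other hairpins then had a median of 0.29, with 6 above 0. In shDDX1 over shNS that centring kept the sign for all 5, at -0.86 for MIR188, -0.52 for MIR532, -0.47 for MIR501, 1.59 for MIR362 and 1.59 for MIR502. The 16 other hairpins then had a median of -0.42, with 5 above 0.

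The pair of ratios differed in direction for several members, and the comparisons share no sample. Across the 12 members the Spearman correlation of the 2 log2 ratios was -0.462 and the Pearson correlation -0.354, and centring by panel left -0.231 and -0.276. Members share plates and samples, so this is a description only. miR-188-5p lay in the corner of lower in shDDX1 and higher after NCS under the common centring, though just short of 2-fold after NCS, and miR-532-3p and miR-501-3p were on the other side of 0 in both under that centring.

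**Figure D4:**
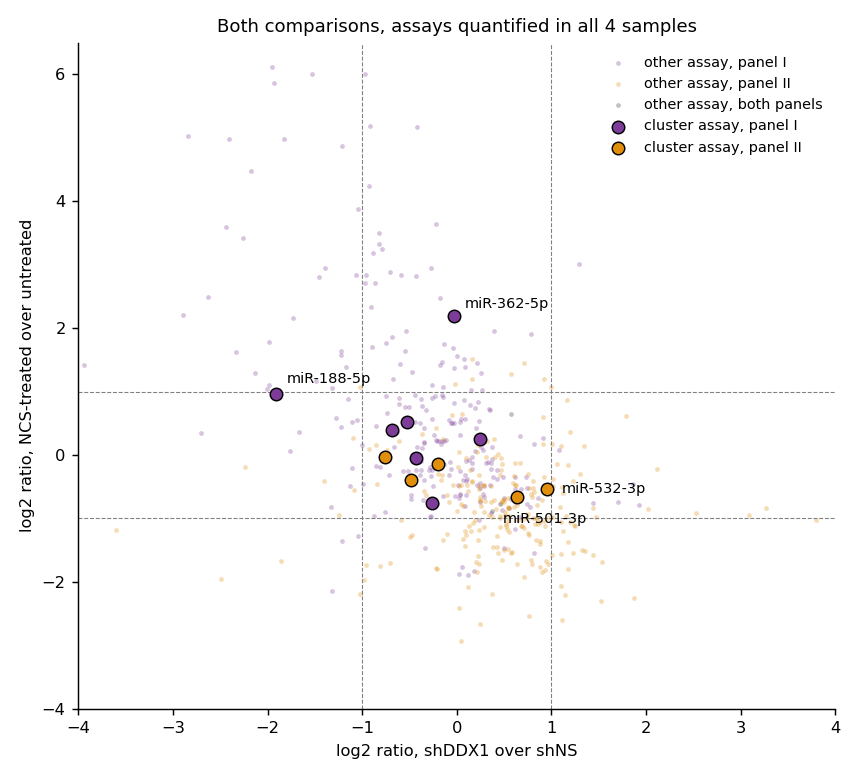
Log2 ratio in shDDX1 over shNS (horizontal) against NCS-treated over untreated cells (vertical) for the 496 assays quantified in all 4 samples, of which 8 lie outside the axes. Large outlined points are the 12 cluster assays, small ones the others, coloured by panel, and dashed lines mark 2-fold. Of the cluster, 10 points lie within 2-fold in both directions, and panel I and panel II assays form shifted clouds.

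Other miRNA clusters hosted in introns had a spread of the same size or wider. In shDDX1 over shNS the SD was 1.04 over 6 assays in MCM7, 1.82 over 4 in SMC4, 0.76 over 4 in DALRD3 and 0.86 over 6 in AOPEP, beside 0.73 over the 12 in CLCN5. The extremes were miR-93* at 2.53 and miR-25 at -0.23 in MCM7, miR-16-2* at 1.48 and miR-16 at -2.41 in SMC4, miR-191* at 0.82 and miR-425 at -0.97 in DALRD3, and miR-23b* at 1.14 and miR-27b at -1.05 in AOPEP. After NCS the SDs were 0.96 for MCM7, 2.90 for SMC4, 3.32 for DALRD3 and 1.16 for AOPEP, beside 0.82 for CLCN5. There the extremes were miR-106b at 1.07 and miR-106b* at -0.96, miR-16 at 4.98 and miR-16-2* at -0.97, miR-425 at 6.01 and miR-191* at -1.09, and miR-23b at 0.89 and miR-23b* at -2.20. Medians in shDDX1 over shNS were 0.31, 0.86, 0.30 and 0.21 in the other clusters and -0.35 in CLCN5. All these values are under the common centring, where the panels are shifted against each other. In each of the other clusters the lowest and highest assays lay on different panels, so for these extremes strand and panel cannot be told apart. In DALRD3 miR-425 and miR-425*, the strands of 1 hairpin, are both on panel I. Their log2 ratios were -0.97 and 0.23 in shDDX1 over shNS, and 6.01 and 0.54 after NCS. None of these differences was tested. Mature miR-16 and miR-24 also come from other loci.

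miR-329, the one assay outside the cluster with a member's seed, had a much lower ratio in shDDX1 over shNS than miR-362-3p. The assay, named without an arm, was taken as the 3p strand. Its sequence is given for that comparison, from RefSeq on chromosome 14 (101026834 to 101026855, plus strand, GRCh38.p14).
miR-329-3p: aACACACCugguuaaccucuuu
miR-362-3p: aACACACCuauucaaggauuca
miR-329 read Ct 26.98 in shDDX1 and 21.8 in shNS, a log2 ratio of -4.87, against -0.76 for miR-362-3p. In the other pair it read 30.3 in NCS-treated cells and 37.3, past the limit, in untreated cells, while miR-362-3p read 31.5 and 32.2. The 5 assays of 484 outside the cluster that lay nearest to the members' medians over the 2 ratios were miR-130a, miR-374a, miR-19a, miR-505 and miR-330-3p, at distances of 0.065 to 0.18 log2 units. This likeness rests on 2 ratios from 4 samples, and all 5 assays are on panel I.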

How the data were processed

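The authors deposited 3 tables. The first holds the Ct of 384 wells on each of 2 panels per sample, per the file headers, and the starting point here was this table. The second holds shifted Ct values, and in both shRNA samples the shift was -0.789 cycles for panel I members and 0.789 for panel II members. In the NCS pair it differed between wells, from -4.31 to -0.441 in NCS-treated and from -4.06 to 0.0244 in untreated cells, and the rule is not given in the sources used here. Finally, 1 table holds the authors' deposited ratio, a fold on the linear scale against the control of the pair. Instrument settings are likewise not given.

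From the first table, members were found by name, Ct values were centred per sample on the mean of 499 common miRNA wells, and log2 ratios were taken within a pair. Assays on both panels were averaged. Higher and lower mean at least 2-fold with Ct under 35 in both samples. The number of samples, 1 per group, limits the precision. Alternatives were other centrings, plate calibrators, subtraction of neighbouring wells or of the median of the same panel and column class, the authors' normalized table, limits of Ct 37 and 32, a 1.5-fold threshold, and removal of readings under Ct 12. Named assays were all members, others with a member's seed, the 5 nearest to the members' medians, and the extremes of 4 other intronic clusters. The members and lists were chosen with earlier results of these data known. Python 3.11.15, numpy 2.4.6, pandas 2.3.3 and matplotlib 3.10.9 were used.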

Additional observations from a re-analysis of the deposited data

Results flagged for a closer look

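Blank (water) wells lie outside the main measurement, and 7 of 9 gave a Ct in shDDX1 and 6 of 9 in shNS, against 0 in NCS-treated and untreated cells. The earliest read 27.3 in shDDX1 and 27.8 in shNS on panel I, and 26.5 and 26.6 on panel II. Of the 12 cluster assays, 4 read later than the earliest blank of their panel in shDDX1 (miR-188-5p, both arms of MIR362 and miR-502-3p), and 2 did in shNS (both arms of MIR362). When assays later than the earliest blank in either sample were left out, 8 of 12 members and 272 of the 716 quantified assays were kept. The part of this signal in the ratios was not tested.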

How the results depend on the processing

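No paired analysis was possible because with 1 sample per group there are no replicate numbers to pair. Beside 1 member lower in shDDX1, there were 6 of 12 against small RNA references (35.9% of all assays), 3 against reference miRNAs (29.3%), with plate calibrators (16.6%) or at 1.5-fold (27.9%), and 2 without centring (24.6%), with each panel centred (15.6%), after subtraction of neighbouring wells (12.8%) or of panel and column class (13.7%), and in the authors' normalized table (24.3%). The count was 0 of 8 (13.2%) when assays later than the earliest blank of their panel were left out, since miR-188-5p is then left out. That setting was chosen after the data were seen. At 1.5-fold 2 members were higher in shDDX1 (23.3%). The shDDX1 median of -0.35 was -1.01 against small RNAs and -0.81 against reference miRNAs, and -0.05 to -0.12 with panels centred, plate calibrators, or neighbours or column class subtracted. Beside 0 members lower after NCS there was 1 with each panel centred (20.5%), and 2 after subtraction of neighbouring wells (12.7%) or at 1.5-fold (40.6%). Beside 1 member higher after NCS there were 5 of 12 against small RNAs (31.7%) or in the authors' normalized table (31.3%), 4 without centring (28.9%), 2 against reference miRNAs (21.5%), after subtraction of panel and column class (16.9%) or at 1.5-fold (22.7%), and 0 under Ct 32 (12.7%), where miR-362-5p is not quantified. The NCS median of -0.04 was 0.88 in the authors' normalized table, 0.75 against small RNAs, 0.69 without centring, and 0.49 and 0.46 after subtraction of column class or neighbours. These references shift all assays alike: the median of all assays moved by -0.67 (shRNA pair) and 0.79 (NCS pair) against small RNAs, -0.46 and 0.33 against reference miRNAs, and -0.30 and 0.73 without centring. Of single-member ratios under other scalings, 53 of 107 in the shRNA pair moved by less than 0.385, and 84 of 119 in the NCS pair by less than 0.795, or 52 by less than 0.354. The cause of these moves was not tested.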
